A study of Mus musculus with 5 samples.

Results

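The S100 genes examined here are 8 members of the family of small calcium-binding proteins, S100a1, S100a4, S100a6, S100a8, S100a9, S100a10, S100a11 and S100a13. They were taken by name from the 26189 gene columns of the deposited tables, where 8 further columns of the family are also present. Cells came from the aortic arch of female mice, where living cells carrying CD45, a surface protein of leukocytes, were sorted and captured on 1 cartridge for single-cell RNA sequencing. All mice were 12 weeks old in the labels and were fed a Western diet for 18 weeks. Wild-type C57BL/6J mice made 1 pool of cells. Mice of the genotype C57BL/6N-Saa3tm1.1(KOMP)Vlcg/MbpMmucd, called Saa3-/- littermates in the series text, made the other, and each pool carried its own sample tag. The labels do not say how many animals each pool held.

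S100 proteins pair into dimers and bind target proteins when calcium rises. S100A8 and S100A9 together form calprotectin, an abundant cytosolic protein of neutrophils that is released as an alarmin and binds TLR4 and the receptor RAGE (gene Ager). Other members act mainly inside the cell, S100A4 on non-muscle myosin, S100A10 and S100A11 with annexins at membranes, S100A1 in calcium handling of muscle, and S100A13 in the export of FGF1 and IL-1 alpha.

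After removal of 87 cells with over 25% of molecules from mitochondrial genes, 833 cells remained in the pool labelled wild-type and 823 in the pool labelled Saa3-/-, with means of 8751 and 6357 molecules per cell and no cell index in common. The targeted gene went against its label, with 1079 Saa3 molecules or 148 CPM (counts per 1000000 molecules summed over the cells in question) in the pool labelled wild-type and 1268 or 242 CPM in the other. Pools are therefore named by their labels, and every direction between them is a direction between libraries so labelled. Single cells were assigned by marker genes to types whose names mean no more than those markers, and 1468 cells passed exactly 1 gate. Of these, 362 were macrophage-like, 358 T-cell-like, 155 B-cell-like, 144 smooth-muscle-like, 129 fibroblast-like, 106 thymocyte-like, 82 monocyte-like, 59 dendritic-like and 22 neutrophil-like. Smooth-muscle-like and fibroblast-like cells were present although the sort was for CD45. Levels below are CPM within the cells of a type, so they do not depend on how many cells of it were caught.

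All 8 genes lie on chromosome 3 (GRCm38, GENCODE release M21) in 2 groups. The first holds 6 members from 90511034 to 90695721, and the second, 2824766 bases further on, holds S100a11 (93520488 to 93526287, plus strand) and S100a10 (93555080 to 93564643, plus strand). S100a8 (90668978 to 90670035, plus strand) and S100a9 (90692632 to 90695721, minus strand) are 22596 bases apart, next to each other among the members. S100a1 (90511034 to 90514392, minus strand) and S100a13 (90514435 to 90524581, plus strand) start back to back with 42 bases between them. S100a4 (90603771 to 90606045) overlaps the gene Gm42674 on the same strand and shares with it 47.4% of its stretches of 50 bases, and S100a11 shares 41.1% of its stretches with other genes that include a processed pseudogene, Gm12854. Counts of these 2 members are uncertain to that extent, while the other 6 shared no such stretch.

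Promoter windows from RefSeq (GRCm38.p6, 250 bases before to 50 after a start) were available for 7 of the 8 members. The motif TATAAA, read on the coding strand, was found in S100a8, S100a9 and S100a4 among them and in 8.32% of 32851 windows. It began 30 bases before the RefSeq start of S100a8, at the RefSeq start of S100a9 and 31 bases before that of S100a4. For S100a8 the RefSeq start differs from the GENCODE start of 90668978, and the stretch shown lies inside the gene as GENCODE places it. The stretches are shown because S100a8 and S100a9 had the steepest differences between cell types and S100a4 holds the same letters at a like distance as S100a8, with TATAAA in capitals, for S100a8 chr3:90669029-90669058 on the plus strand, for S100a9 chr3:90695704-90695733 on the minus strand and for S100a4 chr3:90603727-90603756 on the plus strand.
S100a8: caagctttcctcTATAAAagcagctgacac
S100a9: caaggagctgccTATAAAtactgggcttac
S100a4: ggcctggcagggTATAAAtaggtcagattg

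The motif TGANTCA, read on both strands, was found in 7.81% of windows and, among the members, in S100a11, 136 and 38 bases before its RefSeq start. That stretch, chr3:93520352-93520472 on the plus strand, is shown with both matches in capitals.
S100a11: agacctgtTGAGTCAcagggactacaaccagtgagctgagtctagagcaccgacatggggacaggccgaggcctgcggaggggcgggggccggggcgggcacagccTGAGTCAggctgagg
The RefSeq starts of S100a1 and S100a13 have 104 bases between them and the GENCODE starts 42. The GENCODE interval, chr3:90514393-90514434 read on the plus strand, is shown because a single short stretch separates 2 genes with different patterns over cell types.
S100a13: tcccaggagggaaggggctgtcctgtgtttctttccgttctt
The motif TTGCNNAA (both strands) was in 10.8% of windows and, among the members, in S100a9, and GAGGAA (both strands) in 28.3% of windows and in S100a4, S100a8 and S100a11. A match is a match of letters only.

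S100a8 and S100a9 transcripts were concentrated in the neutrophil-like cells. These 22 cells, 1.33% of all cells, held 976 of 1124 S100a8 molecules (86.8%) and 1397 of 1662 S100a9 molecules (84.1%). S100a8 stood at 15271 CPM (exact Poisson interval 13602 to 17088) in the 7 cells of the pool labelled wild-type and at 12754 CPM (11808 to 13756) in the 15 cells of the pool labelled Saa3-/-. S100a9 stood at 20998 CPM (19033 to 23110) and 18581 CPM (17435 to 19783). Intervals throughout are 95% intervals and cover counting error only. The intervals of the pools overlapped for both genes, and both pools stood far above every other type.

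Single neutrophil-like cells varied widely around these levels. In the pool labelled wild-type a cell held 11 to 82 S100a8 molecules (median 43) and 14 to 110 S100a9 molecules (median 68). In the pool labelled Saa3-/- the ranges were 0 to 141 (median 38) and 0 to 171 (median 60). The single cell with 0 of both held 73 molecules of Retnlg, a secreted factor of neutrophils, and 0 of Csf3r, the receptor for granulocyte colony-stimulating factor, and it lay in a cluster led by Ly6c2 and Chil3. The other 21 lay in 1 cluster.

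Against the mean of macrophage-like and monocyte-like cells, 7 of 8 members were called in neutrophil-like cells, 4 higher and 3 lower. A call means an adjusted p under 0.05 in edgeR's quasi-likelihood test with Benjamini-Hochberg adjustment over all 9552 genes and a log2 ratio that reaches 1 in either direction. Of all genes tested, 11% were called (4.42% higher, 6.57% lower), and the median log2 ratio over all genes was -1.005, against which the ratios in this comparison are to be read. S100a8 was higher by a log2 ratio of 9.46 (SE 0.29, adjusted p = 6.9e-55) and S100a9 by 9.75 (SE 0.30, adjusted p = 5.1e-55). The 22 cells come to 2 pooled libraries, and both libraries lay above every macrophage-like and monocyte-like library for these genes.

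S100a11 and S100a6 were also higher in neutrophil-like cells. S100a11 stood at 4672 and 3815 CPM in the pools labelled wild-type and Saa3-/-, against 344 and 326 in macrophage-like and 889 and 1051 in monocyte-like cells, a log2 ratio of 2.47 (SE 0.22, adjusted p = 8.3e-18). S100a6 stood at 3064 and 4005 CPM, against 527 and 519.9 in macrophage-like and 1099 and 1268 in monocyte-like cells, a log2 ratio of 1.83 (SE 0.23, adjusted p = 2.6e-10). For both genes, both neutrophil-like libraries were above all others in the plot of levels by type, and 22 of 22 cells held a molecule of each. Unlike S100a8 and S100a9, both genes were also plainly detected in every other type.

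S100a4, S100a10 and S100a1 were lower there. S100a4 had 1 and 10 molecules, or 50.2 and 190 CPM, and a log2 ratio of -2.07 (SE 0.46, adjusted p = 0.00040), which was -1.34 without the pool labelled wild-type. In the 21 cells of the neutrophil cluster S100a4 had 1 molecule in each pool (50.2 and 23.0 CPM), so most of the 10 came from the cell in the Ly6c2 and Chil3 cluster. With cells typed by cluster the S100a4 ratio was -4.54. S100a10 had 0 and 3 molecules, the second being 56.9 CPM (interval 11.7 to 166), against 312 and 279 CPM in macrophage-like cells (log2 ratio -3.57, SE 0.61, adjusted p = 3.0e-06). S100a1 had 0 of 72595 molecules, which allows up to 41.3 CPM (3 molecules over both pools), at least 2.40-fold lower than the 99.2 CPM of macrophage-like cells. Monocyte-like cells, at 44.6 CPM, are too near that limit for a difference to be seen at this depth. Its call (adjusted p = 0.024) was lost under 4 alternatives, with adjusted p from 0.053 to 0.11 in edgeR's test or DESeq2. S100a13 had 1 molecule in each pool and was not called (log2 ratio -1.99, SE 0.87, adjusted p = 0.13).

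**Figure D1:**
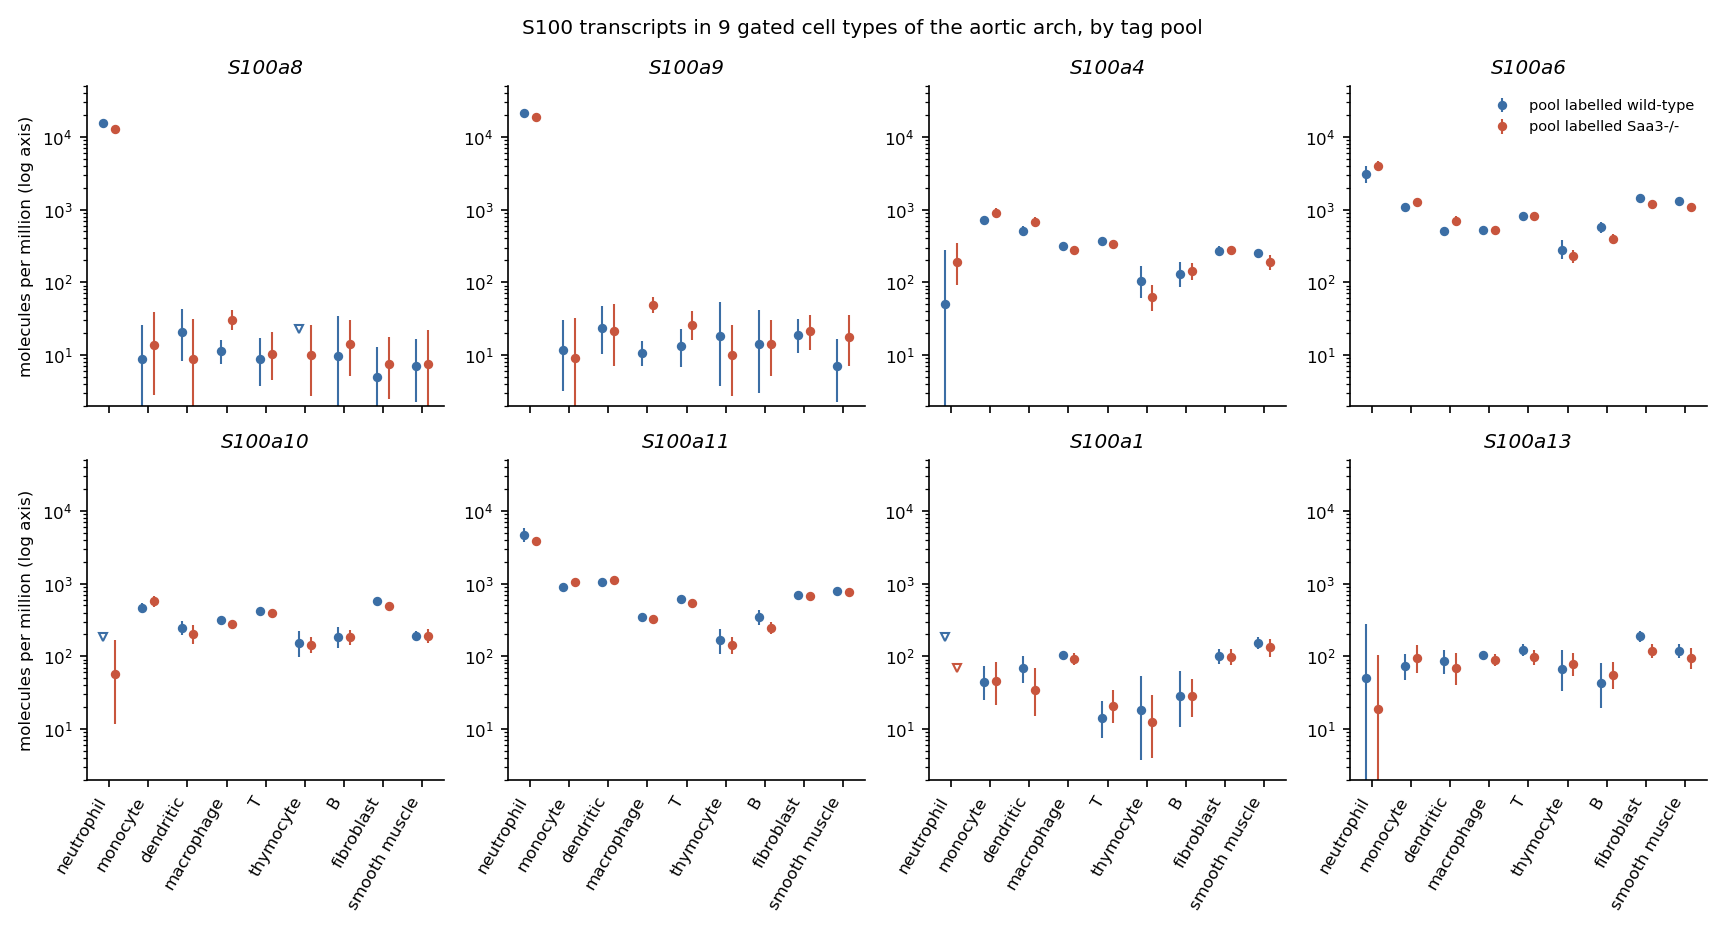
Level of each of the 8 S100 genes (CPM, log axis) in 9 gated cell types, with 1 point per tag pool (blue labelled wild-type, red labelled Saa3-/-) and exact 95% Poisson intervals, cut at the lower edge of the axis. Open triangles give the upper limit where 0 molecules were counted. S100a8 and S100a9 stand at 12754 to 20998 in neutrophil-like cells and below 50 in every other type, while S100a6 and S100a11 are high in several types.

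Of 12 listed secretory and granule genes of neutrophils, 6 were measured in enough libraries to be tested. All 6 were called higher in neutrophil-like cells (median log2 ratio 7.03, against -1.005 over all genes tested). For the reasons given next, this count is no independent support for a shared rise with S100a8 and S100a9. Of these, Retnlg (log2 ratio 10.82), Mmp9 (8.35), Lcn2 (5.70) and Mmp8 (4.81) are also markers of the neutrophil gate, so their direction was set by the choice of cells. Wfdc21, which encodes a small secreted protein, was not a marker and had a log2 ratio of 9.32 (SE 0.91, adjusted p = 5.0e-15 in edgeR's test). Its ratio between myeloid and lymphoid types had an SE of 6274, too large to be a measure. A gene hardly counted in other types can enter the test only by being high in neutrophil-like cells. Chil3, a lectin of immature myeloid cells, is a marker of the monocyte gate, so its level in the comparison group was shaped by that gate. Its log2 ratio was 1.48 (SE 0.43, adjusted p = 0.012 in edgeR's test), but its pools went opposite ways. Its count was 0 in the wild-type-labelled pool and 41 (778 CPM) in the other, which holds the cell from the Ly6c2 and Chil3 cluster, against 1010.4 and 316 CPM in monocyte-like cells. The Chil3 call was lost with DESeq2 (adjusted p = 0.67), and with cells typed by cluster the ratio turned to -9.98. The 6 listed genes that were not tested were nearly absent: Camp, Ltf, Mpo, Elane and Prtn3 had 0 molecules in the 22 cells, which allows up to 41.3 CPM each, and Ngp had 3.

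Outside neutrophil-like cells S100a8 and S100a9 were low. Over all other cells with under 5 molecules of both genes together, S100a8 stood at 8.94 and 10.7 CPM and S100a9 at 13.9 and 18.4 CPM in the pools labelled wild-type and Saa3-/-. T-cell-like cells, which do not make calprotectin, had 8.73 and 10.4 CPM of S100a8, within the interval of monocyte-like cells (8.86 and 13.5) and of smooth-muscle-like cells (7.03 and 7.48). S100a9 ran from 7.03 CPM in smooth-muscle-like cells of the pool labelled wild-type to 26.1 (15.9 to 40.3) in T-cell-like cells of the other pool, apart from macrophage-like cells of that pool, described below. At an equal depth of 2000 molecules per cell, an S100a8 molecule was found in 100% and 93.3% of neutrophil-like cells and in 1.80% and 0.55% of T-cell-like cells, after 10 shallower T-cell-like cells and no neutrophil-like cell were left out. Without thinning the T-cell-like shares were 4.09% and 4.28%, at median depths of 4436 and 3906 molecules against 2733 and 3026 in neutrophil-like cells. The T-cell-like share serves as the reference level for S100a8, and whether it stems from free RNA was not tested. Macrophage-like cells, at 2.42% and 4.05% when thinned, rest on 5 and 6 cells with a molecule, too few to set them apart from the T-cell-like share.

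S100a8 was the lesser of both transcripts in neutrophil-like cells and in the sum over all other cells, though not in every type and pool. S100a8 made 41.1% (exact Clopper-Pearson interval 39.1% to 43.1%) of the sum of both in neutrophil-like cells and 35.8% (31.2% to 40.7%) in all other cells, and this difference was not tested. Without the 2 cells described next it was 38.0%. In fibroblast-like cells it was 23.7% (11.4% to 40.2%), on 9 and 29 molecules. Macrophage-like cells had 28 S100a8 and 27 S100a9 molecules in the pool labelled wild-type and 40 and 64 in the other. Monocyte-like cells had 6 molecules of each.

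Of 1634 cells outside the neutrophil gate, 2 held at least 5 molecules of both genes together, and both were in the pool labelled Saa3-/-. The first was macrophage-like, with 25 S100a8 and 38 S100a9 molecules among 15970, 64 molecules of C1qb, a complement gene of macrophages, 11 of Csf3r and 0 of Retnlg. The second passed no gate, with 3 S100a8 and 31 S100a9 molecules, and lay in the cluster of the neutrophil-like cells. Whether the first is a doublet was not tested.

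Lcn2, a neutrophil granule gene and marker, was not tied to S100a8 and S100a9 in every cell. A group of 6 cells passed the neutrophil gate together with another gate, in 5 of them that of fibroblasts. Of their 524 neutrophil marker molecules 523 were Lcn2, and they held 0 S100a8 and 2 S100a9 molecules. Lcn2 was called higher in fibroblast-like than smooth-muscle-like cells (log2 ratio 3.22, SE 0.44, adjusted p = 1.4e-09), with 64.3 and 472 CPM in the 2 pools. The 6 cells with several gates were left out of every type, the fibroblast-like group included. The fibroblast-like levels of Lcn2 therefore do not include their 523 molecules, whereas the 129 fibroblast-like cells together held 363.

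The other 6 members were expressed in many types, and their order over the 8 types that had 20 or more cells of either pool differed from gene to gene. S100a4 was highest in monocyte-like cells, at 709 CPM in the pool labelled wild-type and 907 in the pool labelled Saa3-/-. Dendritic-like cells followed with 512 and 672, T-cell-like with 368 and 338, macrophage-like with 320 and 281, fibroblast-like with 272 and 275, and smooth-muscle-like with 249 and 190. B-cell-like cells, with 129 and 142, and thymocyte-like cells, with 104 and 62.1, were lowest. This S100a4 order was the same in both pools, and the pair of values of a type overlapped that of no neighbour. Fibroblast-like and macrophage-like cells lay closest, within each other's counting intervals in the pool labelled Saa3-/-.

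S100a11 likewise kept 1 order in both pools. It ran from dendritic-like cells (1053 and 1110.15 CPM) over monocyte-like (889 and 1051), smooth-muscle-like (786 and 776), fibroblast-like (695 and 682), T-cell-like (608 and 544), macrophage-like (344 and 326) and B-cell-like (344 and 248) to thymocyte-like cells (165 and 142). Only macrophage-like and B-cell-like cells overlapped for S100a11. Macrophage-like cells were the myeloid type with the least S100a11, below both stromal types.

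S100a6 was highest in a group of 3 types whose pools overlapped. These were fibroblast-like (1463 and 1206 CPM), smooth-muscle-like (1329.96 and 1070.2) and monocyte-like cells (1099 and 1268). T-cell-like cells had 819 and 805 CPM of S100a6, dendritic-like 499.9 and 689.5, macrophage-like 527 and 519.9, B-cell-like 568 and 397 and thymocyte-like 282 and 228. Thymocyte-like cells were lowest for S100a6 in both pools, below T-cell-like cells taken as a whole.

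S100a10, the partner of annexin A2, was highest in fibroblast-like (582 and 486 CPM) and monocyte-like cells (467 and 568), which overlapped. T-cell-like cells had 420.04 and 389 CPM of S100a10, macrophage-like 312 and 279, dendritic-like 246 and 204, smooth-muscle-like 191 and 192, B-cell-like 181 and 182 and thymocyte-like 153 and 144. Fibroblast-like and smooth-muscle-like cells were close for S100a6, whereas for S100a10 the smooth-muscle-like cells lay beside the B-cell-like cells, far below the fibroblast-like ones.

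S100a1 was highest in smooth-muscle-like cells, at 155 and 132 CPM. Macrophage-like (103 and 91.9) and fibroblast-like cells (99.6 and 98.4) overlapped below it, then dendritic-like (68.0 and 34.7) and monocyte-like cells (44.3 and 45.1). S100a1 was lowest in B-cell-like (28.7 and 28.0), T-cell-like (14.2 and 20.9) and thymocyte-like cells (18.4 and 12.4), which rest on 3 to 16 molecules per library.

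S100a13, whose GENCODE start has 42 bases between it and that of S100a1, had a flatter range. It stood at 188 and 118 CPM in fibroblast-like cells, 122 and 96.6 in T-cell-like, 118 and 94.8 in smooth-muscle-like, 103 and 89.6 in macrophage-like and 73.9 and 94.7 in monocyte-like cells. S100a13 was lowest in B-cell-like cells, at 43.0 and 56.0. T-cell-like cells were thus second for S100a13 in both pools and last or next to last for S100a1. Over the 16 libraries of these 8 types (2 libraries a type, from 1 cartridge), log2 levels of the 2 neighbours had a Pearson r of 0.48, against 0.85 for S100a4 and S100a11 and 0.81 for S100a6 and S100a11.

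Between myeloid types (macrophage-like, monocyte-like and dendritic-like) and lymphoid types (T-cell-like and B-cell-like), 2 of 8 members were called, both higher in myeloid types, where 22.5% of all genes were called, 12.1% higher. These were S100a1 (log2 ratio 1.56, SE 0.30, adjusted p = 9.6e-06) and S100a4 (1.36, SE 0.19, adjusted p = 2.0e-09). The ratio compares means over types. For S100a4, T-cell-like cells (368 and 338 CPM) stood above macrophage-like cells (320 and 281), while B-cell-like cells were low (129 and 142). S100a11 had a log2 ratio of 0.90 (SE 0.17, adjusted p = 3.8e-06), under the limit of 1. The median of the 8 members was 0.49 and that of all genes -0.08. For S100a6, S100a8, S100a9, S100a10 and S100a13 the log2 ratios lay from 0.29 to 0.60 and the adjusted p from 0.094 to 0.55, also in edgeR's test, so no difference passed the test.

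Between stromal types (fibroblast-like and smooth-muscle-like) and lymphoid types, 4 of 8 members were called, all higher in stromal types, where 42.9% of genes were called, 23.3% higher and 19.6% lower. S100a1 had a log2 ratio of 2.67 (SE 0.28, adjusted p = 4.2e-15) and S100a6 one of 1.29 (SE 0.18, adjusted p = 1.1e-09). S100a11 had 1.105 (SE 0.18, adjusted p = 6.0e-08) and S100a13 1.01 (SE 0.23, adjusted p = 0.00010), and both fell under the limit, at 0.84 and 0.76, with library size alone in place of TMM normalization. Without the pool labelled Saa3-/- the S100a11 ratio was 0.69, and without the pool labelled wild-type the S100a13 ratio was 0.52. A share of 4 in 8 is near the share over all genes.

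Between stromal and myeloid types, 1 of 8 members was called, where 38.2% of genes were called, 21.3% higher and 16.9% lower in stromal types. S100a1 was higher in stromal types by 1.10 (SE 0.22, adjusted p = 1.1e-05), and the call ended when gate limits were doubled (0.98) or library size alone was used (0.96). S100a6 at 0.97 (SE 0.16) and S100a4 at -0.93 (SE 0.18) lay just inside the limit, with adjusted p of 1.2e-07 and 3.7e-06. With DESeq2, S100a6 reached 1.31 and S100a13 1.07, and 3 members were called.

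Within the myeloid types, monocyte-like and macrophage-like cells differed in 4 of 8 members, 3 higher and 1 lower in monocyte-like cells, where 5.97% of all genes were called, 2.6% higher and 3.37% lower. The higher members were S100a11 (log2 ratio 1.43, SE 0.25, adjusted p = 5.0e-06), S100a4 (1.32, SE 0.26, adjusted p = 0.00011) and S100a6 (1.08, SE 0.25, adjusted p = 0.0016). S100a10 had 0.70 (SE 0.25, adjusted p = 0.081). S100a1 was lower by a log2 ratio of -1.22 (SE 0.38, adjusted p = 0.032). When cells were typed by cluster in place of gates, S100a6 (0.80) and S100a11 (0.81) fell under the limit and 2 members were called. The S100a1 call was lost under 4 alternatives, with adjusted p of 0.052 to 0.11 in edgeR's test.

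Within the stromal types, 1 of 8 members was called, where 13.2% of genes were called, 8.16% higher and 5.03% lower in fibroblast-like cells. S100a10 was higher in fibroblast-like than smooth-muscle-like cells by 1.48 (SE 0.26, adjusted p = 2.7e-06), and by 1.33 to 1.60 when either pool was left out. S100a6 had 0.15 (SE 0.25) and S100a11 -0.17 (SE 0.24), both with adjusted p over the limit (0.80 and 0.76 in edgeR's test).

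**Figure D2:**
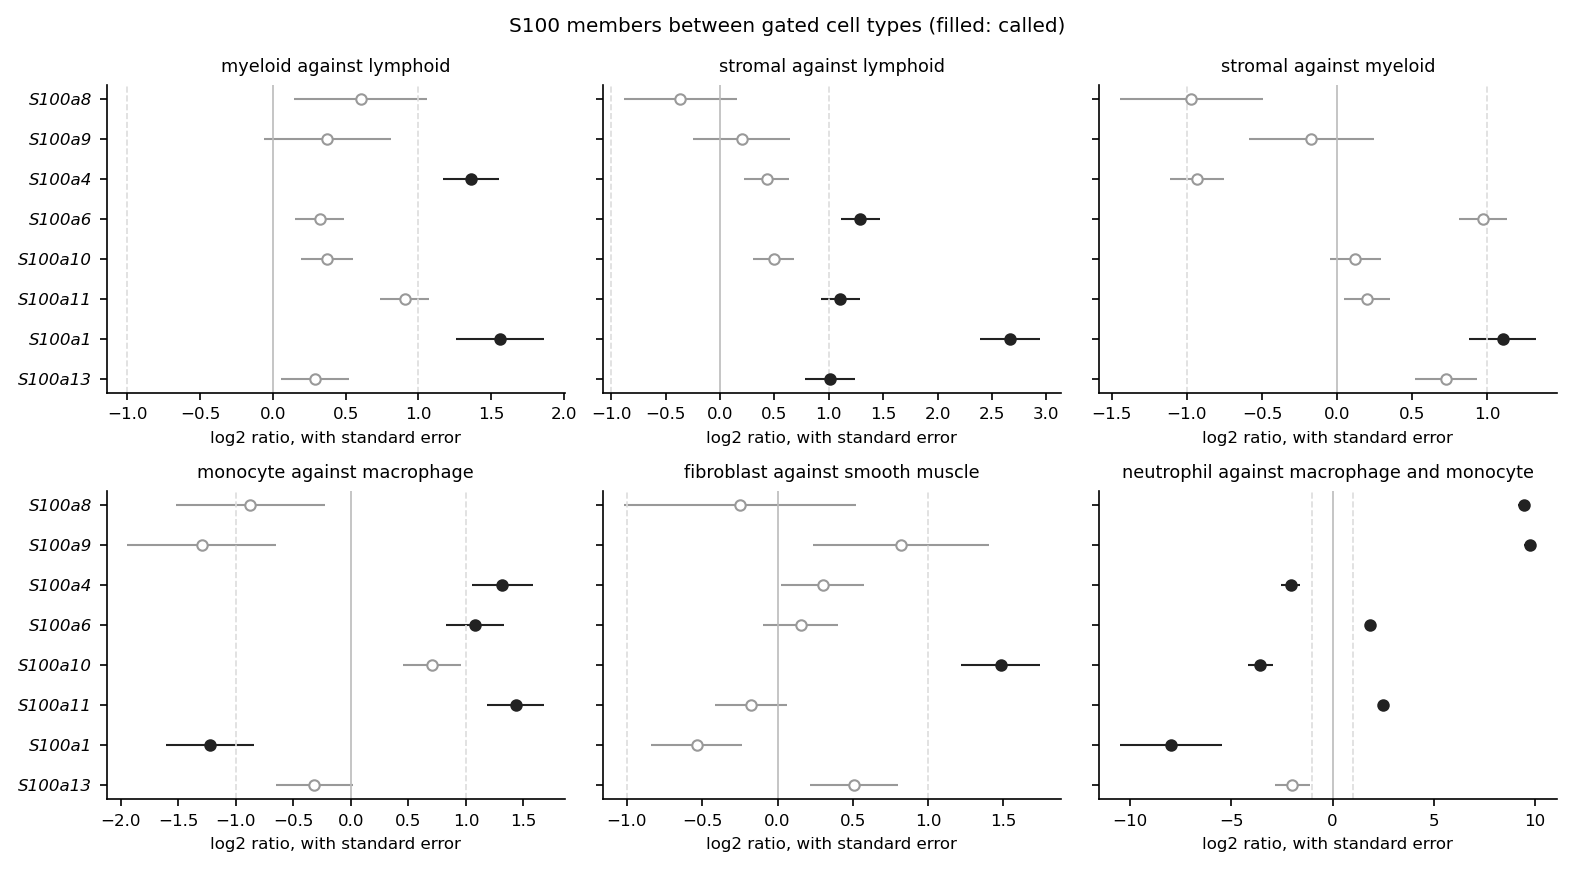
Log2 ratio with its standard error (edgeR fit on summed libraries, 2 pools a type) for the 8 S100 genes in 6 comparisons of cell types, where each panel has its own axis and dashed lines mark ratios of 1 in size. Filled points were called, from 1 of 8 between fibroblast-like and smooth-muscle-like cells to 7 of 8 in neutrophil-like cells. The value of S100a1 in the neutrophil panel rests on 0 molecules and is no measure of size.

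Annexins and other binding partners were compared in the same fit. Of 10 listed partners 9 were tested, and 3 were higher in myeloid than lymphoid types (median log2 ratio 0.95, against -0.08 over all genes, of which 12.1% were called higher), namely Anxa1 (2.84), Anxa2 (2.06) and Anxa5 (2.03), which encode annexins that bind membranes in a calcium-dependent way. In stromal against lymphoid types 5 were higher and 1 lower (median 1.72, against -0.06 over all genes, of which 23.3% were called higher and 19.6% lower). Fgf1, the growth factor exported with S100A13, rose by 4.69 (SE 0.54) and Ahnak, a giant scaffold bound by S100A10 and annexin A2, by 1.72 (SE 0.19). Myh9, the non-muscle myosin bound by S100A4, fell by 1.13 on the log2 scale (SE 0.19). In neutrophil-like cells Anxa5 (-3.55) and Ahnak (-1.38) were called lower, where 6.57% of all genes were and the median log2 ratio was -1.005. The pools split for Ahnak, with 904 CPM (18 molecules) under the wild-type label and 209 (11 molecules) under the other. Macrophage-like cells had 675 and 636 CPM of Ahnak and monocyte-like cells 942 and 1313. Anxa2, at 854 and 949 CPM, was not called in neutrophil-like cells, although S100a10 was nearly undetected there.

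Receptors listed for S100 proteins, not all of them for S100A8 and S100A9, differed between types one by one. Of 8 listed receptors 7 were tested, and 5 were higher in myeloid than lymphoid types (median 1.74, beside the same -0.08 and 12.1% over all genes), Cd36 (log2 ratio 3.02), Cd33 (2.68), Ly96 (2.34), Tlr4 (1.74) and Il10ra (1.14), with adjusted p up to 0.030 in edgeR's test. With cells thinned to equal depth 2 were called. In stromal against lymphoid types Ncam1 (4.06), Tlr4 (2.71) and Bsg (1.70) were higher and Il10ra (-2.49) was lower (median 1.70, where 42.9% of all genes were called), while Cd36, Cd33 and Ly96 were not called. Tlr4 levels were modest, at 32.3 and 43.6 CPM in macrophage-like cells and 49.2 and 31.8 in fibroblast-like cells. In neutrophil-like cells Cd33 was higher (2.87) and Cd36 lower (-3.64) than in macrophage-like and monocyte-like cells. Ager did not reach the count needed for a test.

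Subsets within types differed in the 4 broadly expressed members. Clusters were computed without any S100 gene, and their values are given as a description with no test. They are named by the genes that led them within their type.

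Most T-cell-like cells fell into 3 clusters. S100a4 stood at 874 and 873 CPM (pools labelled wild-type and Saa3-/-) in 94 cells led by Cd163l1, Blk, Trdc and Il23r, where Trdc encodes the constant region of the delta T cell receptor chain. It stood at 260.5 and 279 CPM in 139 cells led by Ccl5 and Nkg7, genes of effector lymphocytes, and at 81.2 and 34.1 in 105 cells led by Lef1 and Ccr7, genes of naive T cells. S100a6 followed the same order with 1571 and 1695, 762 and 896, and 169 and 148 CPM. S100a10 (684 and 633, 437 and 467, 142 and 137) and S100a11 (1064 and 1139, 571 and 520, 176 and 174) did so too. The steps between clusters were larger than the spread of the pools for all 4 genes. The Lef1 and Ccr7 cluster stood at 156 CPM of S100a6 over both pools (interval 120 to 199), which overlapped the thymocyte-like clusters, at 181 (128 to 248) and 164 (120 to 220). Gated thymocyte-like cells as a whole were higher, as given above.

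Nearly all dendritic-like cells fell into 2 clusters, which stood apart in S100a4 and S100a6 and overlapped in S100a11. The 32 cells led by Cd209a and Clec10a had 1068 and 1232 CPM of S100a4, and the 26 cells led by Cadm1 and Clec9a, genes of cross-presenting dendritic cells, had 50.8 and 63.4. S100a6 stood at 795 and 1073 CPM against 237 and 272. S100a11 stood at 1010 and 1173 against 1147 and 1041 CPM. S100a4 was therefore both among its highest and among its lowest levels within 1 gated type.

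Part of the monocyte-like cells lay in 2 clusters. In 27 cells led by Thbs1, Hp and Ly6c2, genes of classical monocytes, S100a6 stood at 1359 and 2330 CPM, S100a4 at 697 and 1460.5 and S100a10 at 453 and 678. In 29 cells led by Cd300e and Treml4, genes of patrolling monocytes, S100a6 stood at 693 and 329 CPM, S100a4 at 393 and 395 and S100a10 at 162 and 79.0. S100a11 was at 915 and 887 against 393 and 592 CPM. Each of the 4 genes was higher in the first cluster in both pools.

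Macrophage-like clusters differed less in S100a11 than in S100a6 and S100a4. S100a6 stood at 508 and 516 CPM in 190 cells led by Lyz1 and Ccr2, at 385 and 462 in 93 cells led by Lyve1 and Cd163, which mark resident vascular macrophages, and at 475 and 490 in 30 cells led by Gpnmb and Fabp5, genes of lipid-laden macrophages. It was highest, at 1000.45 and 651 CPM, in 46 cells led by Nes and Apbb2. S100a4 stood at 527 and 294 CPM in that cluster and at 326 and 313 in the Lyz1 and Ccr2 cluster. It stood at 316 and 216 CPM in the Gpnmb and Fabp5 cluster and at 215 and 274 in the Lyve1 and Cd163 cluster. The S100a4 order of the 4 clusters thus differed between the pools. S100a10 was highest in the Lyve1 and Cd163 cluster, at 391 and 365 CPM, and S100a11 stayed between 274 and 399 CPM in all 4 clusters and both pools. For S100a6 the Gpnmb and Fabp5 cluster thus lay within the range of the other clusters.

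**Figure D3:**
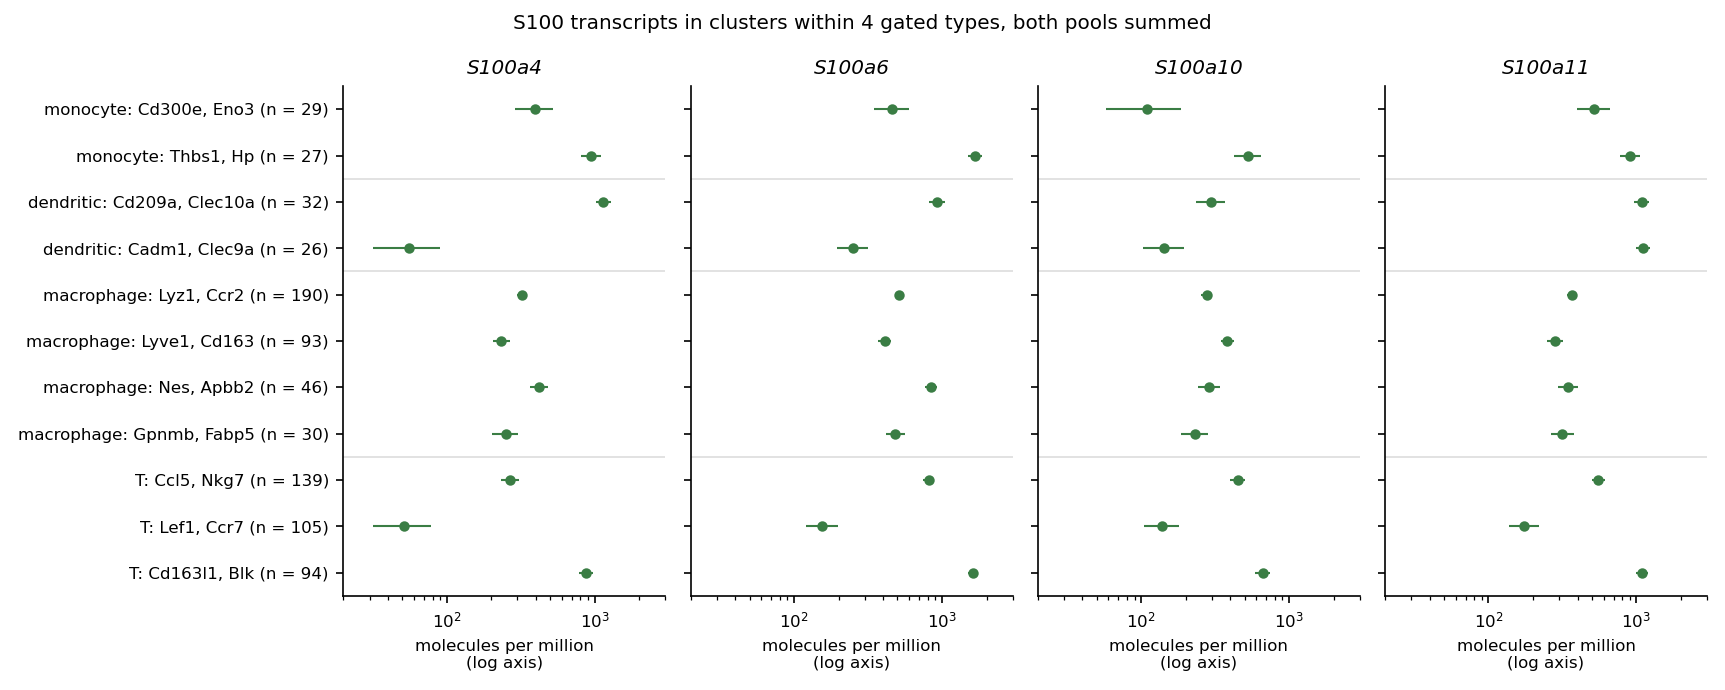
Levels of S100a4, S100a6, S100a10 and S100a11 (CPM, log axis, exact 95% Poisson intervals, both pools summed) in clusters of 4 gated types, each named by its first leading genes with its number of cells. S100a4 runs from 51.0 in the T-cell-like Lef1 and Ccr7 cluster to 1144 in the dendritic-like Cd209a and Clec10a cluster, and the 4 macrophage-like clusters run from 233 to 421.

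Between the tag pools, each with 1 library per type, no test was possible and values are given with counting intervals. Of 64 pairs of a member and a type, 40 had at least 50 molecules, and 2 of them passed a log2 ratio of 1 in size. Both were in macrophage-like cells, where 1.87% of 7691 genes passed the same limit. S100a8 had 28 molecules (11.2 CPM, interval 7.42 to 16.1) in the pool labelled wild-type and 40 (30.6 CPM, 21.9 to 41.7) in the pool labelled Saa3-/-. S100a9 had 27 (10.8 CPM) and 64 (49.0 CPM). The macrophage-like cell with 63 molecules of both genes, described above, belonged to the second pool. Without it S100a8 stood at 11.6 CPM and S100a9 at 20.2, the log2 ratios went from 1.45 to 0.08 and from 2.17 to 0.90, and neither passed the limit.

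In the other 7 types 0 members passed the limit. The share of all genes past it was 6.92% in monocyte-like, 5.54% in dendritic-like, 2.34% in T-cell-like, 4.8% in thymocyte-like, 3.95% in B-cell-like, 4.99% in fibroblast-like and 1.57% in smooth-muscle-like cells. Apart from S100a8 and S100a9, 38 ratios lay between -0.67 and 0.46. All 38 lay inside the central range of all genes tested in their type (grey bands in the plot of pool ratios). These ranges include genes with as few as 50 molecules, whose counting error is wider than that of members with many molecules. Lying inside a range thus does not show that a ratio is ordinary for a gene of the same depth. The lower ends of these ranges were at most -0.72 (macrophage-like cells) and the upper ends at least 0.76 (T-cell-like cells). The counting interval excluded 0 in 10 of the 38 ratios, with 3 above 0 and 7 below (Saa3-/- label over wild-type label). The share of all genes with such an interval is not given, so this count has no background to be read against.

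The lowest was S100a13 in fibroblast-like cells, at 149 against 78 molecules or 188 against 118 CPM (log2 ratio -0.67, interval -1.08 to -0.27). S100a6 was lower in fibroblast-like (-0.28, interval -0.41 to -0.15), smooth-muscle-like (-0.31, -0.48 to -0.15) and B-cell-like cells (-0.52, -0.86 to -0.17) and higher in dendritic-like cells (0.46, 0.14 to 0.78). S100a4 was higher in dendritic-like (0.39, 0.07 to 0.71) and monocyte-like cells (0.36, 0.08 to 0.63). All 4 members measured in monocyte-like cells had ratios above 0, though S100a6 (-0.16) and S100a10 (-0.10) turned when cells were typed by cluster. All 5 in T-cell-like cells had ratios below 0, although within the Ccl5 and Nkg7 cluster S100a4, S100a6 and S100a10 were higher in the pool labelled Saa3-/-. The makeup of these types moved as well. The Thbs1 and Hp cluster was 41.5% of monocyte-like cells in the pool labelled wild-type and 24.4% in the other, and the Cd209a and Clec10a cluster was 50% and 59.3% of dendritic-like cells. The Lef1 and Ccr7 cluster, low in these genes, was 21.6% and 36.4% of T-cell-like cells. A cluster of fibroblast-like cells led by Col2a1 and Acan, genes of cartilage, was 11.4% and 23.7%. It had 207 and 73.5 CPM of S100a13 and 933 and 919 of S100a6, against 190 and 144 of S100a13 and 1563 and 1375 of S100a6 in the larger Pi16 cluster. Their part in the ratios was not tested.

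**Figure D4:**
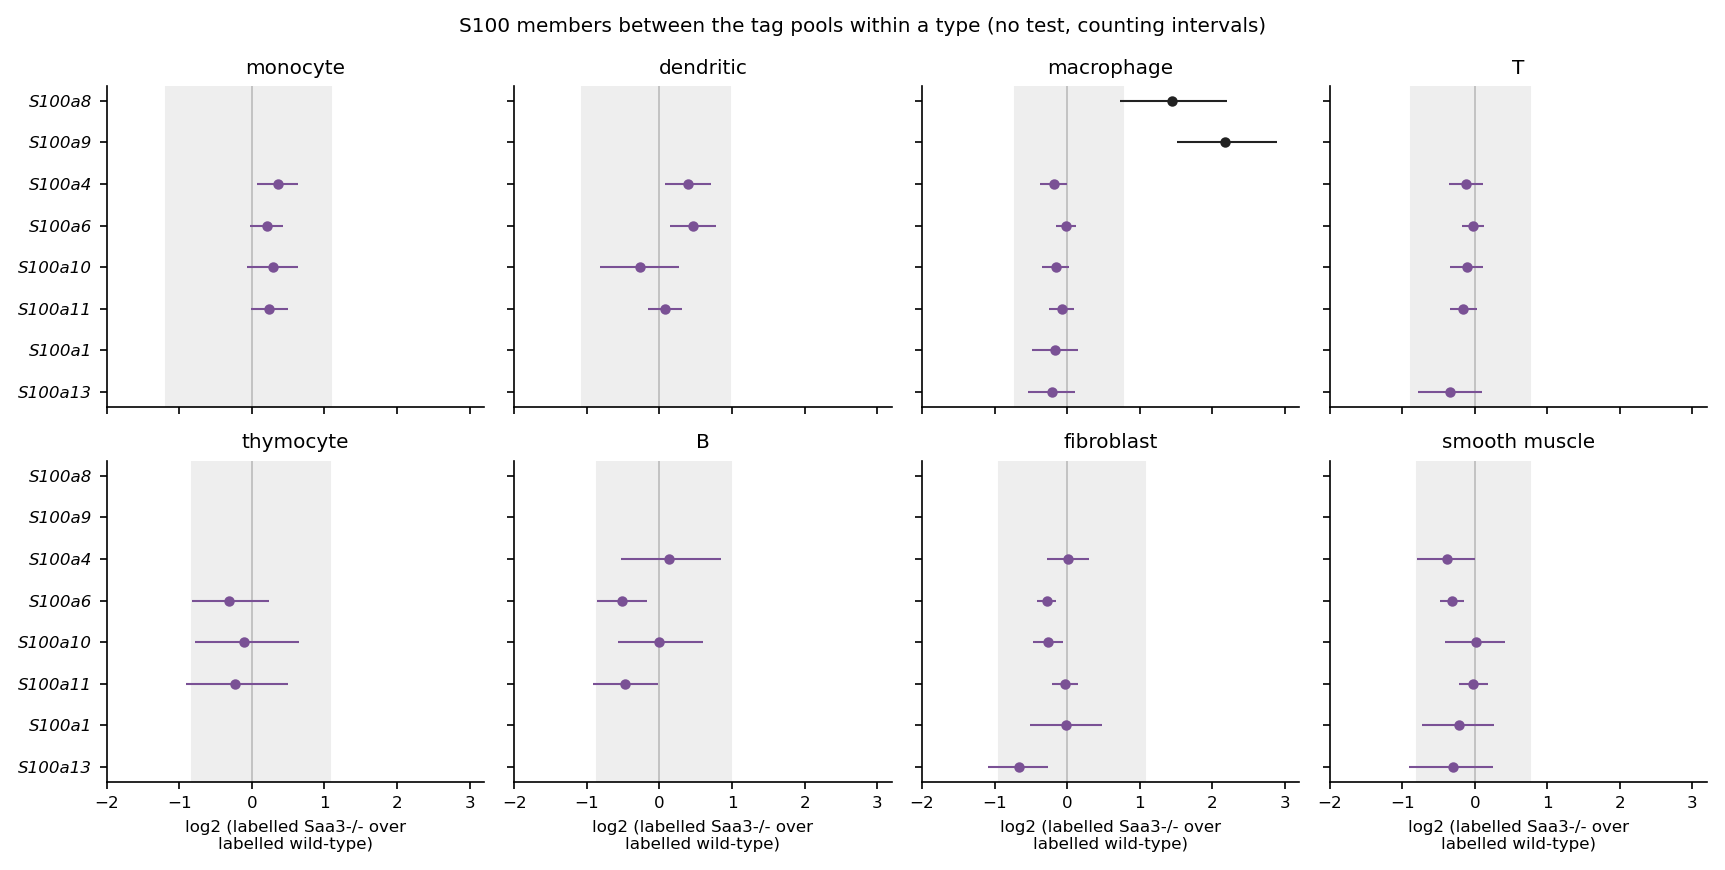
Log2 ratio between pools, with Saa3-/- as label of the numerator and wild-type as label of the denominator, for each S100 gene with at least 50 molecules in a type, with exact counting intervals, in 8 types. Grey bands hold the central 95% of all genes tested in that type. Only S100a8 and S100a9 in macrophage-like cells (black, 1.45 and 2.17) lie past a ratio of 1, and without 1 cell they stand at 0.08 and 0.90.

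The genes whose levels over the 16 libraries were most like a member's were found among 11447 genes that are neither S100 genes nor type markers. They share libraries and cartridge with the member, and r is given as a description. S100a1 was most like Asph (r = 0.95), Cd63 (0.94) and Itgb5 (0.93). S100a4 was most like Gcnt2 (0.91), Grk3 (0.90) and Cyp4f16 (0.90), and S100a6 most like Ahnak (0.94), Ybx3 (0.90) and Klf9 (0.87). S100a11 was most like Ube2w (0.91), with Ybx3 (0.83) again and Afdn (0.83) after it. Values for S100a10 (Os9, 0.81, Xdh, 0.80, Tent5a, 0.80) and S100a13 (Garnl3, 0.87, Hspa13, 0.87, Camk2n1, 0.85) were lower than for S100a1. For S100a8 (Mthfs, 0.87, Plekho2, 0.84, Tcirg1, 0.81) and S100a9 (Ttyh2, 0.70, Elmod3, 0.61, Syngr1, 0.60) the libraries compared did not include neutrophil-like cells, and 1 macrophage-like cell held much of the molecules of its library, so these rest on low counts.

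Of the other 8 family columns, S100a16 was the only one with over 100 molecules. It had 415, of which 175 were in fibroblast-like cells (120 CPM), 116 in smooth-muscle-like cells (104 CPM) and 18 in endothelial-like cells (318 CPM), which are few. S100b, known from glia and fat, had 53 molecules, 38 of them in fibroblast-like cells. S100a3 had 16, S100a7a 13, S100z 2, S100a5 1, S100g 1 and S100a14 0.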

How the data were processed

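Single cells of 1 aortic arch sample were measured. Each sample tag has its own deposited table of counts (molecules by gene and cell), made with the BD Rhapsody pipeline version 1.11.1 on GRCm38 with GENCODE release M19, per the file headers, which do not say whether counting used strand. The table names alone give the genotype of each tag. The deposited tag calls matched all 1743 cells and left 647 undetermined and 11 multiplets outside the count tables. A treatment given to all mice is not reported here. The 4 bone-marrow-derived macrophage samples were not analysed here.

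Cells with at most 25% mitochondrial molecules were kept. Types were gated on summed marker genes per 10000 molecules, with limits set from the marker sums, and at least 3 marker molecules. The 96 cells with several gates, a guard against doublets, and the 92 with none were left out of types. No doublet caller was run. Clusters (scanpy 1.11.5, leidenalg 0.10.2, 22 clusters) were computed without S100 genes, and 94.2% of gated cells lay in a cluster of the same name.

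Counts were summed over 11 types and 2 pools and fitted with edgeR 4.0.16 (TMM, quasi-likelihood, type and pool as terms, 10 residual degrees of freedom). The pools are the 2 samples of each type. The spread of each gene was drawn towards that of all genes, with a median of 100.8 prior degrees of freedom. P-values thus rest largely on a spread shared over genes, between libraries that share a cartridge. Pool ratios used a pseudocount of 0.5 molecule. Scripts were tested on simulated data. The text names the 8 members, other S100 columns, listed partners, receptors and granule genes, and the 3 most similar genes per member. Members and lists were chosen with earlier results of these data known. Alternatives included DESeq2 1.42.0, other cell filters and typings, and equal depth.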

Additional observations from a re-analysis of the deposited data

How the results depend on the processing

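Depth limits S100a8 and S100a9 outside neutrophil-like cells and S100a1 in lymphoid and neutrophil-like cells, and 1 pool per genotype label leaves differences between pools without a test. Without the pool as replicate block the counts of members called were 2, 4, 1, 4, 1 and 7 for myeloid and stromal against lymphoid, stromal against myeloid, monocyte-like against macrophage-like, fibroblast-like against smooth-muscle-like and neutrophil-like cells, as with it. Between stromal and lymphoid types 2 were called with library size only. Between stromal and myeloid types 2 were called with library size only, cluster typing or thinned cells, 3 with DESeq2 and 0 with gate limits doubled. Between monocyte-like and macrophage-like cells 2 were called with no filter on low counts and with cluster typing. The cause was not tested.

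In macrophage-like cells 0 members passed the pool limit without the 2 highest cells, with thinned cells (under 50 molecules were then left) or without cells with 5 molecules of both genes, the last 1 of the alternatives chosen after seeing the data, as were those for the share of S100a8 and for the lists. Thinning cells to 2000 molecules left 2 of 7 receptors called in myeloid against lymphoid types. The type highest by share of cells matched that by level for 7 of 8 members at 2000 molecules and for 4 at 1000. The type highest in level was the same in both pools for 4 members, and for 4 to 6 under the alternatives.

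No called member changed direction. Among uncalled ones, S100a8 turned to -0.092 (thinned cells) and S100a9 to -0.043 (without the highest cells) in myeloid against lymphoid types. S100a8 turned to 0.0034 (DESeq2) and S100a9 to -0.075 (library size only) in stromal against lymphoid types. Against myeloid types S100a9 turned to 0.16 (DESeq2) and 0.19 (without the highest cells) and S100a10 to -0.026 (library size only) and -0.059 (cluster typing). S100a8 (0.32, gate limits doubled) and S100a10 (-0.082, cluster typing) turned in monocyte-like against macrophage-like cells. S100a6 (-0.053, without the highest cells) and S100a8 (3.41, thinned cells) did so in fibroblast-like against smooth-muscle-like cells. Of 576 member ratios under the alternatives 501 kept direction and side of the threshold or stayed within 1 SE.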
